A study of Mus musculus with 56 samples.

Results

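The comparison described here set gastrocnemius muscle taken at ZT24 against muscle taken at ZT20 in mice fed only by day, with 4 libraries in each group, so 8 of the 56 libraries of the study. Zeitgeber time (ZT) counts hours from lights on. The members are all genes of these 8 libraries, chosen by the sample labels alone, and 12025 genes with a mean of at least 1 CPM (reads scaled to a common library size) over the 56 libraries were tested. The mice were C57BL/6J females of 9 weeks, group housed under 12 h of light and 12 h of darkness. All had 7 days of free feeding on normal chow before 7 days of food in the light phase only (daytime-restricted feeding, DRF) or in the dark phase only (nighttime-restricted feeding, NRF). The DRF ZT24 group and the DRF ZT20 group therefore share strain, sex, age and feeding regimen, and differ in collection time, 12 h and 8 h after lights off. The NRF ZT24 group and the NRF ZT20 group, 4 libraries each, gave the same clock step in mice that had food available in the dark phase. The labels do not say whether each library came from its own animal, so p-values measure the spread between libraries.

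As background, a day-fed mouse goes without food through the dark phase, when mice are normally active, so this step covers the late hours of a nightly fast. In fasting, skeletal muscle takes up more fatty acids, holds back pyruvate oxidation through pyruvate dehydrogenase kinase, and turns on genes under the fatty acid receptors PPAR alpha and PPAR delta. Low insulin also releases FoxO transcription factors, which drive genes of autophagy and protein breakdown, while the circadian clock runs on in the same fibres.

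The libraries held 29522846 to 33980124 recovered reads. Defining muscle transcripts dominated all 8, with the 12 skeletal muscle markers summing to 202500 to 263600 CPM at ZT24 and 241100 to 324800 CPM at ZT20. The libraries differed in slow fibre transcripts. The 12 slow fibre genes summed to 1912 to 5020 CPM at ZT24, against 120.8 to 5076 CPM at ZT20. Myh7, the slow myosin heavy chain, measured 835, 483, 955 and 1335 CPM at ZT24 and 1377, 2.22, 155 and 414 CPM at ZT20 in replicates 1 to 4. ZT20 replicate 1 was thus slightly above the highest ZT24 library and ZT20 replicate 2 was far below every other library. Nerve transcripts varied too: the 8 Schwann cell and nerve markers summed to 396.9 to 1129 CPM at ZT24 and 98.95 to 605.1 CPM at ZT20. ZT20 replicate 1 also lay farthest from its group of all 56 libraries, with a root mean square deviation of 0.407 on the log2 scale, and the next library had 0.279. In bulk tissue, fewer cells of a type and less RNA per cell cannot be told apart.

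**Figure D1:**
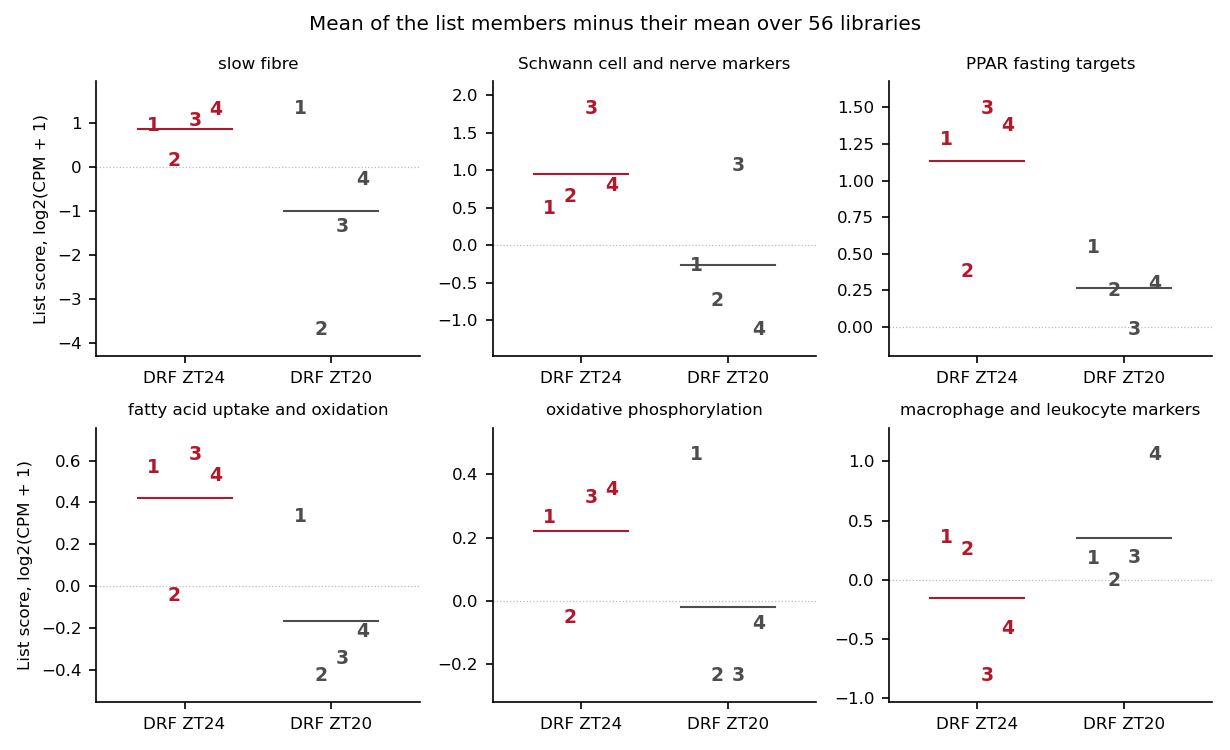
Score of 6 gene lists in each DRF library, ZT24 left and ZT20 right; numerals give the replicate, lines the group mean, and the vertical axis the mean log2(CPM + 1) of the list members minus their mean over 56 libraries. Slow fibre scores ran from 0.13 to 1.29 at ZT24 and from -3.69 to 1.33 at ZT20, and ZT24 replicate 2 was the lowest ZT24 library for the fuel lists.

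Among the genes that rose at ZT24 relative to ZT20 were Ehhadh of peroxisomal fatty acid oxidation, Pank1 of coenzyme A synthesis, Ulk1 and Depp1 of autophagy, and Clpx and Slc25a22 of mitochondria. Among those that fell were the muscle regulators Myod1 and Mamstr and the early response gene Nr4a1. At an adjusted p under 0.05, 114 of 12025 genes were called (0.948%), 79 higher at ZT24 (0.657%) and 35 lower (0.291%). The median change of the called genes was 0.46 for those higher and -0.66 for those lower, in log2(CPM + 1), and 11 of the higher and 3 of the lower genes changed by 1 or more. The median of all genes was 0.011. With the total recovered count as library size the split was 174 higher and 19 lower and the median of all genes stood at 0.12, and with quantile normalization it was 78 and 56. Without any overlap between the 4 ZT24 and the 4 ZT20 values there were 307 genes higher (2.55%) and 359 lower (2.99%), which included 49 and 28 of the called ones.

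These calls used the spread shared by all 14 groups. A fit on the 8 libraries alone called 0 genes in limma, with 1267 genes at an unadjusted p under 0.05. Single libraries moved the count: it was 3, 367, 21 and 58 without ZT24 replicates 1, 2, 3 and 4, and 348, 27, 49 and 62 without ZT20 replicates 1, 2, 3 and 4. With the slow fibre score of each library as a covariate, 39 genes were called (0.324%), 27 of them among the 114. Without the 2 ZT20 libraries at the ends of the slow fibre score, 4 genes were called. Of 37 called genes followed through each alternative, 2 stayed called in each fit that left out 1 library, Ehhadh and Myod1, and 35 lost their call without ZT24 replicate 1.

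**Figure D2:**
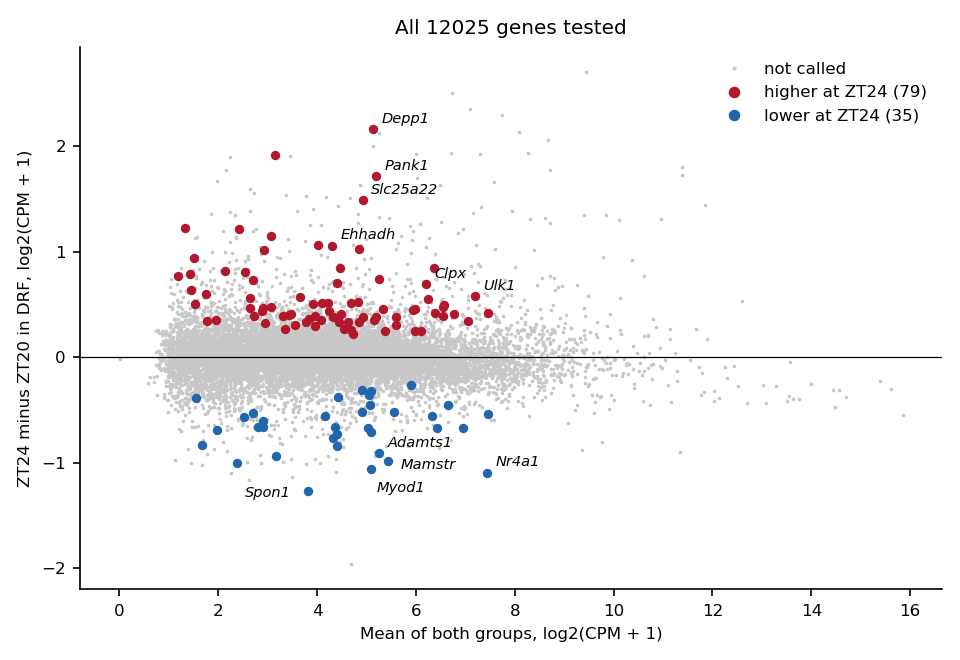
Change of every tested gene, ZT24 minus ZT20 in DRF in log2(CPM + 1), against its mean level over both groups; coloured points passed an adjusted p of 0.05. The 79 genes that rose reach 2.16 (Depp1) and the 35 that fell reach -1.27 (Spon1), and grey genes with larger changes did not pass.

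Ehhadh, the bifunctional enzyme of peroxisomal fatty acid oxidation and a classic PPAR alpha target in liver, had the smallest p of all genes and is named for that after its values were seen. It measured 34.2, 13.2, 24.4 and 33.0 CPM at ZT24 and 9.66, 10.7, 10.9 and 14.5 CPM at ZT20. ZT24 replicate 2 lay inside the ZT20 range and the other ZT24 libraries lay above it. The change was 1.06 ± 0.17 (SE, adjusted p = 0.00195), and 0.98 with the slow fibre score as a covariate (adjusted p = 0.00749). Its gene lies on chromosome 16 at 21761285 to 21787834 (GRCm38.p6).

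Slc25a22, a mitochondrial glutamate carrier (chromosome 7, 141429749 to 141437874), measured 56.3, 24.4, 43.8 and 52.0 CPM at ZT24 against 18.9, 10.2, 12.3 and 18.2 CPM at ZT20. The groups did not overlap, and the change was 1.48 ± 0.27 (adjusted p = 0.00653). Pank1, a pantothenate kinase that starts coenzyme A synthesis, measured 80.9, 24.6, 55.6 and 60.3 CPM at ZT24 and 26.4, 10.4, 9.17 and 18.8 CPM at ZT20. ZT24 replicate 2 fell below ZT20 replicate 1, and the change was 1.71 ± 0.37 (adjusted p = 0.0168). Both stayed called with the slow fibre covariate (adjusted p = 0.0165 and 0.0239). Pdp2, a phosphatase that reactivates pyruvate dehydrogenase, rose by 1.06 ± 0.26 (adjusted p = 0.0354), with 25.9, 11.1, 23.7 and 24.2 CPM at ZT24 and 11.2, 8.05, 7.53 and 10.3 CPM at ZT20. Pdp2 did not pass with the slow fibre covariate (adjusted p = 0.115).

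Promoters of 4 called genes are printed because they carry a match to a motif of a FoxO or a clock factor, with the match in capitals. Each is 250 bases before to 50 after a RefSeq start of the gene (GRCm38.p6), on the gene's strand, and they were chosen after the calls were known. RefSeq gave 2 promoters for Pank1, 3 for Kctd20, 1 for Pdp2 and 3 for Map2k6, and the first that held a match is printed. Pank1 and Kctd20 carry TGTTTAC, the core bound by FoxO factors, Pdp2 carries CACGTG, the E-box bound by CLOCK and BMAL1, and Map2k6 carries TTATGTAA, the D-box bound by DBP, TEF and HLF.
Pank1 (chr19:34879406-34879705, minus strand): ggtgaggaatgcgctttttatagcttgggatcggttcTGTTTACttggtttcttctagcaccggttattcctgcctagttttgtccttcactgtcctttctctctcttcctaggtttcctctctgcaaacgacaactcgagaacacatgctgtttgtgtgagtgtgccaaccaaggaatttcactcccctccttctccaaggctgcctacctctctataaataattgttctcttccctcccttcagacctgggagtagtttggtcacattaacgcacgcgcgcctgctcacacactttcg
Kctd20 (chr17:28952966-28953265, plus strand): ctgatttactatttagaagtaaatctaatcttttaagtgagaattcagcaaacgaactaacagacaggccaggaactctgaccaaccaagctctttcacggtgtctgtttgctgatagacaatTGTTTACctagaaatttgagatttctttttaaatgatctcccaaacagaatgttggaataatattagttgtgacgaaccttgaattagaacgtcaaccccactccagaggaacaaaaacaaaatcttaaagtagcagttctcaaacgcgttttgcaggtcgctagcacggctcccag
Pdp2 (chr8:104591222-104591521, plus strand): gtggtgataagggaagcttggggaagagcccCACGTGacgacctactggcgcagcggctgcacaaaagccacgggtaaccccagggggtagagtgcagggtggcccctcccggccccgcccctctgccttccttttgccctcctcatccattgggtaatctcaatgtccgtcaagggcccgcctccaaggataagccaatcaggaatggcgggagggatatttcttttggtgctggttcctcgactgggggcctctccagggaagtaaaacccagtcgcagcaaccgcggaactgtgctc
Map2k6 (chr11:110478265-110478564, plus strand): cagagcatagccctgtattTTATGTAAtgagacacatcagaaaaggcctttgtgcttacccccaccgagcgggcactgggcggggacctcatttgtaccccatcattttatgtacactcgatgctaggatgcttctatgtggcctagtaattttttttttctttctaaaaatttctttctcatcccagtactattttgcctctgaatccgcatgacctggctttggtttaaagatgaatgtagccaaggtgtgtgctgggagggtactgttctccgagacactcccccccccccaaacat
The matches begin 213, 127, 219 and 231 bases before the start that each printed promoter belongs to. Searched on both strands in every RefSeq promoter of a gene, the FoxO core was present in 6 of 64 genes higher at ZT24 and 0 of 22 lower, against 293 of 9612 tested genes with a promoter (3.05%). Beside Pank1 and Kctd20, these were Abhd4, Hbp1, Pi4k2a and Zfp874b. The E-box was present in 6 of 64 and 4 of 22, against 11.9% of all, and the D-box in 0 of 64 and 1 of 22, against 0.593%. Kctd20, a BTB domain gene, rose by 0.45 ± 0.10 (adjusted p = 0.0168), with 81.9, 55.2, 63.2 and 79.7 CPM at ZT24 and 43.6, 47.8, 55.6 and 56.1 CPM at ZT20. A match is a description of letters in a window only.

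Beyond these genes, the lists of fatty acid handling lay above 0 but few of their members passed. Of 18 measured PPAR fasting targets, 17 had a change above 0, with a median of 0.70, and 1 passed, beside 0.657% of all genes called higher. Of the 18, 10 had an unadjusted p under 0.05 in limma, beside 17.1% of all genes. Pdk4, the kinase that shuts pyruvate dehydrogenase in fasting, measured 3320, 1081, 3838 and 3325 CPM at ZT24 and 730, 1404, 759 and 1565 CPM at ZT20. ZT24 replicate 2 was below 2 of the ZT20 libraries and the other ZT24 libraries were above all of them, and the change of 1.31 ± 0.76 did not pass (adjusted p = 0.369). Angptl4, a secreted lipase inhibitor, had 31.4, 23.9, 68.7 and 42.5 CPM at ZT24 and 5.96, 31.5, 24.1 and 18.2 CPM at ZT20 (change 1.12 ± 0.56, adjusted p = 0.299). Ucp3, a mitochondrial carrier of fasted muscle, had 257, 146, 306 and 317 CPM at ZT24 and 116, 291, 134 and 169 CPM at ZT20 (0.56 ± 0.38, adjusted p = 0.447). Pdk4, Angptl4 and Ucp3 are named after their values were seen.

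In fatty acid uptake and oxidation, 25 of 27 members lay above 0 with a median of 0.60. None passed in limma or in limma voom, with 20 at an unadjusted p under 0.05. Over all genes in the same fit, 2053 of 12025 (17.1%) had an unadjusted p under 0.05, and the counts at that level for the lists described below stand beside this share. Cd36, the fatty acid transporter, was the 1 of 27 members whose groups did not overlap, beside 5.54% of all genes, with 559, 295, 530 and 421 CPM at ZT24 and 252, 179, 219 and 224 CPM at ZT20 (1.01 ± 0.35, adjusted p = 0.137). The largest change in this list was 1.35. Acot1, a cytosolic acyl-CoA thioesterase that is not in this list, stood at 16.8, 3.48, 23.1 and 23.1 CPM at ZT24 and 6.99, 1.90, 1.28 and 3.48 CPM at ZT20 (1.90 ± 0.51, adjusted p = 0.0522). All 26 oxidative phosphorylation genes lay above 0, with a median of 0.24, 0 called in limma or limma voom, and 3 at an unadjusted p under 0.05. In the pyruvate dehydrogenase and tricarboxylic acid list, 25 of 27 lay above 0, with a median of 0.26. In that list 1 was called, beside 0.657% of all genes called higher, and 14 had an unadjusted p under 0.05. Of 15 lipid droplet and lipolysis genes, 12 lay above 0, with a median of 0.31, and 0 were called by limma or limma voom, with 6 at an unadjusted p under 0.05. Plin5, a coat protein of oxidative muscle lipid droplets, had 71.0, 19.9, 69.1 and 61.5 CPM at ZT24 and 29.2, 11.5, 7.73 and 15.4 CPM at ZT20 (1.73 ± 0.57, adjusted p = 0.124).

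All 12 slow fibre genes also lay above 0, with a median of 1.99. Of these, 0 passed in limma or limma voom, with 7 at an unadjusted p under 0.05. A part of slow fibre content in the changes of the lists above was not tested. With the slow fibre score as a covariate, the list medians were 0.34 for PPAR fasting targets, 0.22 for fatty acid uptake and oxidation, 0.07 for pyruvate dehydrogenase and tricarboxylic acid genes and 0.03 for oxidative phosphorylation, with a median of 0.012 over all genes.

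Autophagy held 3 called members of 20, all higher at ZT24, beside 0.657% of all genes called higher, with a median of 0.06 over the list and 12 members above 0. Of the 20, 7 had an unadjusted p under 0.05. Ulk1, the kinase that starts autophagy (chromosome 5, 110784489 to 110810120), measured 220, 128, 162 and 192 CPM at ZT24 and 115, 116, 108 and 120 CPM at ZT20. No values overlapped, and the change was 0.58 ± 0.11 (adjusted p = 0.00653, and 0.0195 with the slow fibre covariate). Gabarapl1, a ubiquitin-like protein of the autophagosome membrane, measured 136, 60.2, 111 and 117 CPM at ZT24 and 85.2, 46.1, 47.6 and 52.5 CPM at ZT20 (0.85 ± 0.22, adjusted p = 0.0427). Depp1, a FoxO-induced regulator of autophagy, had the largest change of the called genes, 2.16 ± 0.54 (adjusted p = 0.0403), with 86.7, 8.53, 65.8 and 71.5 CPM at ZT24 and 14.6, 5.79, 5.31 and 14.3 CPM at ZT20. ZT24 replicate 2 was among the ZT20 values and the other ZT24 libraries were above all of them. Neither Gabarapl1 nor Depp1 passed with the slow fibre covariate (adjusted p = 0.140 and 0.132).

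Pik3c3, the lipid kinase of autophagosome nucleation, was named after its values were seen: it rose by a small amount, 0.27 ± 0.06 (adjusted p = 0.0168), with 24.3, 23.8, 23.8 and 26.2 CPM at ZT24 and 18.4, 22.3, 19.6 and 20.4 CPM at ZT20. Map1lc3b, which encodes the conjugated membrane protein LC3, had a change of 0.09 ± 0.08, and the cargo receptor Sqstm1 had 0.02 ± 0.12, and neither passed.

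In the FoxO and atrophy list, Fbxo30, a ubiquitin ligase of muscle wasting, was the 1 of 23 members that passed, beside 0.657% of all genes called higher. It measured 18.0, 11.9, 15.3 and 10.8 CPM at ZT24 and 5.81, 9.99, 9.79 and 11.1 CPM at ZT20 (0.57 ± 0.14, adjusted p = 0.0421, and 0.0887 with the slow fibre covariate). The list's median was 0.12, with 4 members at an unadjusted p under 0.05. The atrophy ligases Fbxo32 and Trim63 did not pass. Fbxo32 measured 1238, 581, 926 and 854 CPM at ZT24 against 547, 1035, 942 and 1259 CPM at ZT20, a change of -0.06 ± 0.30. Of 22 insulin and IGF signalling genes, Igf1r, the IGF-1 receptor, was the 1 that passed, beside 0.657% of all genes called higher. Igf1r measured 30.6, 23.2, 36.2 and 27.4 CPM at ZT24 and 16.2, 24.03, 20.7 and 20.2 CPM at ZT20 (0.51 ± 0.11, adjusted p = 0.0153, and 0.0282 with the slow fibre covariate). The insulin and IGF list had a median of -0.01, with 7 members at an unadjusted p under 0.05. Ppp2ca, the catalytic subunit of protein phosphatase 2A, had one of the larger gains in CPM, at 201 ± 35.9 CPM at ZT24 and 150 ± 28.0 CPM at ZT20 (SD, n = 4 each). Its change was 0.41 ± 0.11 (adjusted p = 0.0432, and 0.142 with the slow fibre covariate).

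**Figure D3:**
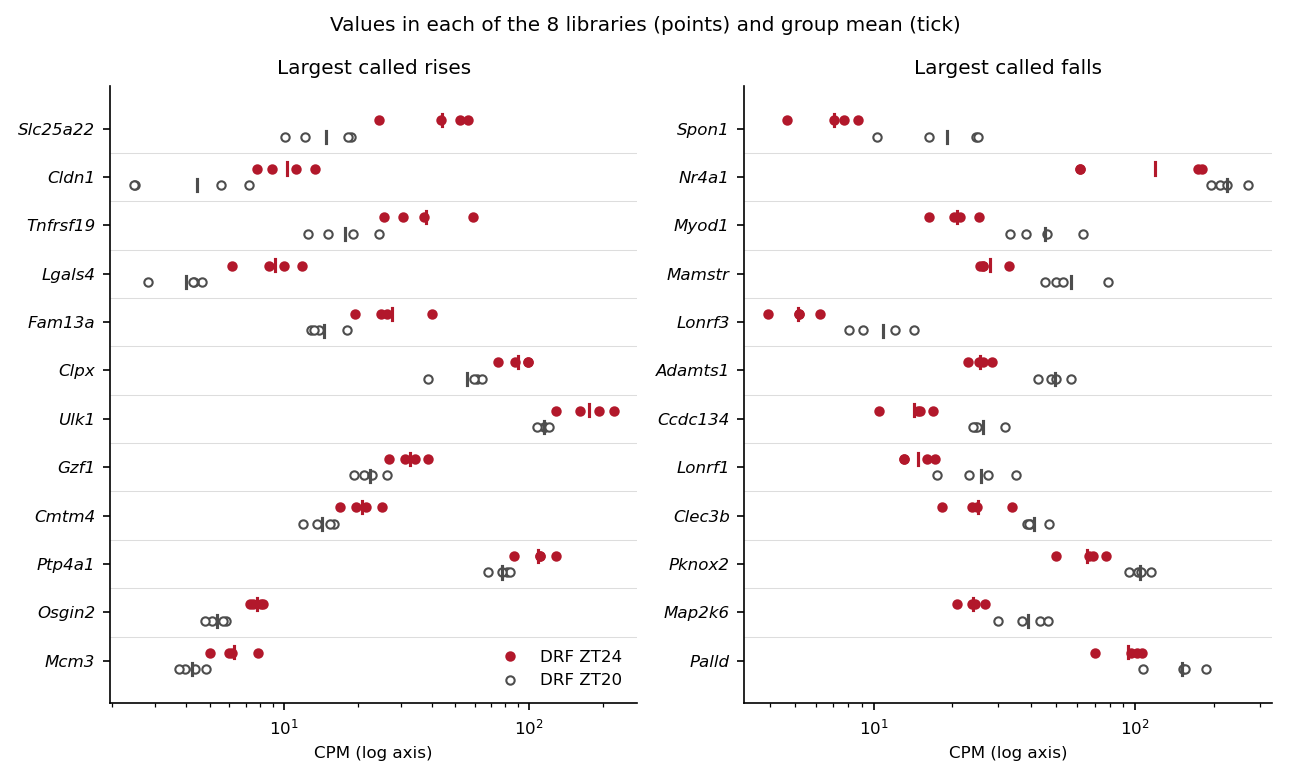
CPM, on a log axis, in each of the 4 ZT24 (filled, upper row of each gene) and 4 ZT20 libraries (open, lower row) for the 12 largest rises and 12 largest falls among called genes without overlap; ticks mark group means. Osgin2, at 7.26 to 8.24 CPM at ZT24 and 4.80 to 5.80 CPM at ZT20, shows the tightest groups, and Nr4a1 splits its ZT24 libraries into 2 near 61.6 CPM and 2 above 173 CPM.

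Other genes that rose served varied functions. Clpx, the unfoldase of the mitochondrial ClpXP protease, measured 98.8, 74.3, 98.5 and 87.8 CPM at ZT24 and 38.8, 61.3, 64.0 and 59.4 CPM at ZT20 (0.69 ± 0.13, adjusted p = 0.00653, and 0.0205 with the slow fibre covariate). Txnrd1, the cytosolic thioredoxin reductase and the 1 of 25 antioxidant genes that passed, measured 119, 68.6, 101 and 93.2 CPM at ZT24 and 76.1, 65.5, 65.1 and 72.9 CPM at ZT20 (0.42 ± 0.09, adjusted p = 0.0168). That 1 of 25 stood beside 0.657% of all genes called higher, and 5 of the antioxidant list had an unadjusted p under 0.05. Cldn1, a tight junction claudin, and Tnfrsf19, of the TNF receptor family, rose by 1.14 ± 0.29 and 1.03 ± 0.27 (adjusted p = 0.0427 and 0.0446). Lgals4, a galectin, averaged 9.19 ± 2.40 CPM at ZT24 and 4.01 ± 0.83 CPM at ZT20, and Fam13a averaged 27.7 ± 8.77 and 14.6 ± 2.36 CPM (SD, n = 4 each). Ptp4a1, a phosphatase of the PRL family, averaged 109 ± 17.1 CPM at ZT24 and 77.5 ± 6.87 CPM at ZT20. Gzf1, Cmtm4, Osgin2 and Mcm3, a subunit of the replicative helicase, rose by 0.47 to 0.52. Adjusted p-values of these last 7 genes lay between 0.0168 and 0.0403. With the slow fibre covariate, the genes of this paragraph other than Clpx did not pass, at an adjusted p of 0.0533 to 0.147.

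Among the genes that fell, Myod1, the myogenic transcription factor (chromosome 7, 46376474 to 46379092), gave the smallest p. It measured 21.4, 25.2, 16.3 and 20.3 CPM at ZT24 and 63.5, 38.3, 33.3 and 45.9 CPM at ZT20, so every ZT24 library was below every ZT20 library. The change was -1.06 ± 0.20 (adjusted p = 0.00653), and -1.07 with the slow fibre covariate (adjusted p = 0.0157). The other called genes that fell and are described below did not pass with that covariate, at an adjusted p of 0.0533 to 0.16. Myod1 was the 1 called member of 26 muscle regulators and myokines, beside 0.291% of all genes called lower. That list's median was -0.08, with 5 members at an unadjusted p under 0.05. Mamstr, a coactivator of MEF2 factors, measured 26.2, 33.1, 25.6 and 26.2 CPM at ZT24 and 49.8, 79.1, 52.9 and 45.4 CPM at ZT20 (-0.98 ± 0.22, adjusted p = 0.0168). Mstn, the growth inhibitor myostatin, had 64.2, 61.8, 60.6 and 54.3 CPM at ZT24 and 62.6, 126, 124 and 148 CPM at ZT20, and its change of -0.86 ± 0.31 did not pass (adjusted p = 0.152).

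Nr4a1, an orphan nuclear receptor induced within minutes of many stimuli, was the 1 called member of 29 immediate early genes, beside 0.291% of all genes called lower. It measured 61.6, 181, 61.6 and 174 CPM at ZT24 and 212, 195, 225 and 271 CPM at ZT20 (-1.09 ± 0.28, adjusted p = 0.0421). The ZT24 libraries formed 2 pairs, both below the ZT20 range, while the list as a whole had a median of 0.09, with 5 members at an unadjusted p under 0.05. Map2k6, a kinase that activates p38, measured 24.3, 26.6, 20.8 and 23.8 CPM at ZT24 and 29.8, 43.2, 36.8 and 46.6 CPM at ZT20 (-0.67 ± 0.15, adjusted p = 0.0215). Pknox2, a homeodomain factor, and Palld, an actin-bundling protein, both fell by 0.67 (adjusted p = 0.0473 and 0.0168). Pknox2 did not pass in limma voom (adjusted p = 0.0532).

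Secreted proteins were among the products of the genes that fell. Adamts1, a secreted metalloprotease, measured 26.1, 25.2, 22.9 and 28.2 CPM at ZT24 and 42.6, 56.7, 47.7 and 49.7 CPM at ZT20, 2 tight groups with a change of -0.91 ± 0.22 (adjusted p = 0.0331, and 0.0951 with the slow fibre covariate). Spon1, a matrix protein, averaged 7.03 ± 1.71 CPM at ZT24 and 19.0 ± 7.12 CPM at ZT20, and Clec3b, tetranectin, averaged 25.1 ± 6.51 and 41.0 ± 3.87 CPM (SD, n = 4 each). The changes were -1.27 ± 0.33 for Spon1 (adjusted p = 0.0473) and -0.71 ± 0.19 for Clec3b (adjusted p = 0.0487). Neither passed in limma voom (adjusted p = 0.0582 and 0.0532). Markers of matrix-producing cells lay lower as well: 1 of 14 fibroblast and matrix genes lay above 0, with a median of -0.32, 0 called in limma or limma voom and 3 at an unadjusted p under 0.05. They summed to 1505 to 2506 CPM at ZT24 against 2123 to 2786 CPM at ZT20. Their part in the falls was not tested. Lonrf1, Lonrf3 and Ccdc134 fell by 0.73 to 0.94 (adjusted p = 0.0280 to 0.0401), and Trim35 and Sel1l3 had 2 of the largest losses in CPM, at 145 ± 37.6 and 83.6 ± 7.05 CPM at ZT24, against 206 ± 11.6 and 116 ± 15.7 CPM at ZT20 (SD, n = 4 each; adjusted p = 0.0286 and 0.0198).

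None of the 19 clock genes passed in limma or limma voom, with 6 at an unadjusted p under 0.05, and their median change was -0.20. Dbp, an output activator of the clock, had 4.92, 6.48, 3.77 and 7.45 CPM at ZT24 and 16.3, 13.6, 9.24 and 9.92 CPM at ZT20, without overlap (-0.995 ± 0.32, adjusted p = 0.108). Dbp shares reads with other genes, which leaves its values uncertain. Hlf, its relative, had 7.20 to 8.46 CPM at ZT24 and 10.2 to 14.5 CPM at ZT20 (-0.61 ± 0.18, adjusted p = 0.0807), and Nfil3, the repressor of the same D-box sites, had 31.3 to 53.4 CPM and 57.8 to 76.0 CPM (-0.61 ± 0.25, adjusted p = 0.196). Npas2, a partner of BMAL1, was the 1 member without overlap in the other direction, with 4.02 to 5.19 CPM at ZT24 and 2.42 to 3.05 CPM at ZT20 (0.58 ± 0.16, adjusted p = 0.0540). These 4 of 19 compare with 5.54% of all genes without overlap. Arntl, which encodes BMAL1, Clock and Cry2 had changes of -0.24 ± 0.21, 0.04 ± 0.19 and -0.03 ± 0.12. Per1, Per2 and Per3 had 0.94 ± 0.34, -0.64 ± 0.34 and -0.40 ± 0.27. Rev-erb genes Nr1d1 and Nr1d2 had 0.05 ± 0.27 and 0.13 ± 0.14, Rora -0.20 ± 0.23, Cry1 -0.27 ± 0.13, Bhlhe40 -0.55 ± 0.20, Bhlhe41 -0.51 ± 0.26, Tef -0.13 ± 0.13 and Ciart -0.11 ± 0.24.

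The lists described next had 0 called members in limma and in limma voom. At an unadjusted p under 0.05 stood 7 of the 8 Schwann cell and nerve markers, 6 of 29 glycolysis genes and 5 of 20 endoplasmic reticulum stress genes. So did 4 of 12 macrophage markers, 4 of 12 skeletal muscle markers, and 0 to 3 members of the glucocorticoid, cholesterol, heat shock, proteasome, integrated stress, fast fibre and remaining cell type lists, beside 17.1% of all genes. Of 29 glycolysis and glycogen genes, 5 were lower without overlap, beside 2.99% of all genes. The median of that list was -0.11, and 10 of the 29 lay above 0. The lowest change in the list was -0.62, and the change of largest size was a rise. Among the 5, Ppp1r3c, a glycogen-targeting phosphatase subunit, had 344, 466, 485 and 384 CPM at ZT24 and 607, 526, 525 and 1004 CPM at ZT20 (-0.62 ± 0.29, adjusted p = 0.256). Of 31 proteasome genes 8 lay above 0, with a median of -0.07. The glycolysis and proteasome medians turned to 0.01 and 0.06 with the total recovered count as library size. Medians were 0.13 for 19 glucocorticoid targets, 0.11 for 21 cholesterol synthesis genes, 0.09 for 24 heat shock genes, 0.09 for 22 integrated stress response genes and -0.08 for 20 endoplasmic reticulum stress genes, and the last turned to 0.05 with that library size. Of 13 fast fibre genes 2 lay above 0, with a median of -0.37 that became -0.03 with quantile normalization. Of the 12 skeletal muscle markers 3 lay above 0, with a median of -0.29 that became 0.02 with quantile normalization. All 12 macrophage and leukocyte markers lay below 0, with a median of -0.51, and summed to 79.42 to 209.6 CPM at ZT24 and 147.2 to 338.9 CPM at ZT20. All 8 Schwann cell and nerve markers lay above 0, with a median of 1.22. Adipocyte markers had a median of 0.13, red blood cell markers -0.01, endothelial markers 0.13, tendon markers 0.09, satellite cell markers -0.02 and smooth muscle markers 0.15. The remaining lists also had 0 called members in limma and limma voom, with medians of 0.14 for 21 fatty acid and triglyceride synthesis genes, 0.15 for 26 PGC-1, ERR and AMPK genes, 0.20 for 23 amino acid catabolism genes, 0.21 for 16 hypoxia genes, -0.20 for 25 calcium handling genes, 0.04 for 25 sarcomere genes, -0.01 for 29 ribosome biogenesis genes, 0.07 for 15 cold-inducible genes and -0.09 for 19 interferon-inducible genes. At an unadjusted p under 0.05 stood 9 of the PGC-1, ERR and AMPK genes, 6 each of the amino acid, hypoxia, calcium and sarcomere lists, and 1 to 3 of each of the rest. With the total recovered count as library size, the medians below 0 of the muscle regulator, insulin, ribosome, red blood cell, satellite cell and interferon lists turned to values of 0.004 to 0.12, beside the median of 0.12 over all genes. No defining marker of the cell types named was at 0 in any of the 8 libraries among the members tested.

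The same clock step was also measured in night-fed mice, and the difference between the DRF and the NRF step was tested in the same fit. In NRF, 405 genes passed between ZT24 and ZT20 (3.37%), 57 higher (0.474%) and 348 lower (2.89%). Of the 114 genes called in the DRF step, 11 were also called in the NRF step, all in the same direction. Among the called genes that fell and are named above, all but Clec3b also had a lower NRF mean at ZT24 than at ZT20. In NRF, Mamstr averaged 64.1 CPM at ZT20 and 36.4 CPM at ZT24, Lonrf1 29.8 and 16.1 CPM, and Myod1 49.6 and 42.4 CPM. The steps differed for 62 genes (0.516%), 53 with a higher step in DRF (0.441%) and 9 with a lower one (0.0748%). Of the 62, 9 were also called in the DRF step itself, all higher at ZT24, and 37 were called in the NRF step, 31 of them lower and 6 higher at ZT24. The count was 0 in a limma fit on the 16 libraries alone, with 1153 genes at an unadjusted p under 0.05. It was 7 with the total recovered count as library size, 11 and 191 without DRF ZT24 replicates 1 and 2, 23 and 100 without DRF ZT20 replicates 3 and 1, and 13 without NRF ZT24 replicate 3.

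Ehhadh was one of the 62: its NRF values were 8.80, 13.8, 9.12 and 7.64 CPM at ZT24 and 9.42, 9.90, 9.63 and 9.83 CPM at ZT20, and the steps differed by 1.07 ± 0.24 (adjusted p = 0.0247). Txnrd1, Cmtm4 and Pik3c3 also differed, by 0.66 ± 0.15, 0.74 ± 0.16 and 0.37 ± 0.08. For Ulk1, Myod1 and Depp1 the differences of 0.56 ± 0.15, -0.85 ± 0.28 and 3.01 ± 0.77 did not pass (adjusted p = 0.0718, 0.155 and 0.0554).

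The 53 differences above 0 were ranked among genes with whole reads and a group mean of at least 5 CPM, leaving out predicted models. The 6 largest of that ranking came from genes that passed in the NRF step and not in the DRF step. Arrdc2, an alpha-arrestin induced by glucocorticoids, measured 116, 48.9, 109 and 96.3 CPM at ZT24 and 35.6, 8.50, 18.7 and 80.7 CPM at ZT20 in DRF. In NRF it measured 4.97, 8.29, 4.58 and 9.12 CPM at ZT24 and 108, 18.4, 84.9 and 58.8 CPM at ZT20. The DRF step of 1.70 ± 0.51 did not pass (adjusted p = 0.0907), the NRF step of -2.94 ± 0.51 did (0.000701), and they differed by 4.64 ± 0.73 (0.000695). Per1, the period gene that glucocorticoids and feeding can induce, measured 57.2, 25.2, 37.7 and 47.4 CPM at ZT24 and 28.0, 8.54, 15.9 and 44.7 CPM at ZT20 in DRF. In NRF it measured 8.93, 15.2, 8.76 and 11.0 CPM at ZT24 and 42.2, 22.1, 37.5 and 46.3 CPM at ZT20, and the steps differed by 2.58 ± 0.48 (adjusted p = 0.00707). The steps of Map3k6, a stress-activated kinase, of Fam107a and of Slc4a8, a sodium bicarbonate transporter, differed by 1.96 ± 0.32, 1.65 ± 0.38 and 1.57 ± 0.34 (adjusted p = 0.000695, 0.0249 and 0.0187). Arrdc3, a second alpha-arrestin, had a DRF step of 0.03 ± 0.23 and an NRF step of -1.29 ± 0.23 (difference adjusted p = 0.0493).

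Of the 9 genes with a lower step in DRF, Cish, an inhibitor of cytokine receptor signalling, stood out. It measured 3.61, 3.75, 20.6 and 7.58 CPM at ZT24 and 97.0, 17.2, 13.4 and 35.4 CPM at ZT20 in DRF, and 9.94, 103, 23.7 and 42.2 CPM at ZT24 and 4.91, 8.82, 4.15 and 9.53 CPM at ZT20 in NRF. ZT24 replicate 3 lay above 2 ZT20 libraries in DRF, the NRF groups did not overlap, and the steps differed by -4.11 ± 0.92 (adjusted p = 0.0222). Spon2, Has3, a hyaluronan synthase, Pik3cd, a catalytic subunit of phosphoinositide 3-kinase, and Cstf3, a cleavage factor of polyadenylation, differed by -1.70 ± 0.33, -1.06 ± 0.22, -0.81 ± 0.16 and -0.57 ± 0.13 (adjusted p = 0.0105, 0.0137, 0.0137 and 0.0249). Nr1d1, the clock repressor REV-ERB alpha, was the other named gene, with steps of 0.05 ± 0.27 in DRF and 1.77 ± 0.27 in NRF (difference adjusted p = 0.0190), though its reads are shared with other genes. With the total recovered count as library size, Map3k6, Arrdc2, Per1, Pik3cd, Spon2 and Nr1d1 kept the call and the other differences named here did not.

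**Figure D4:**
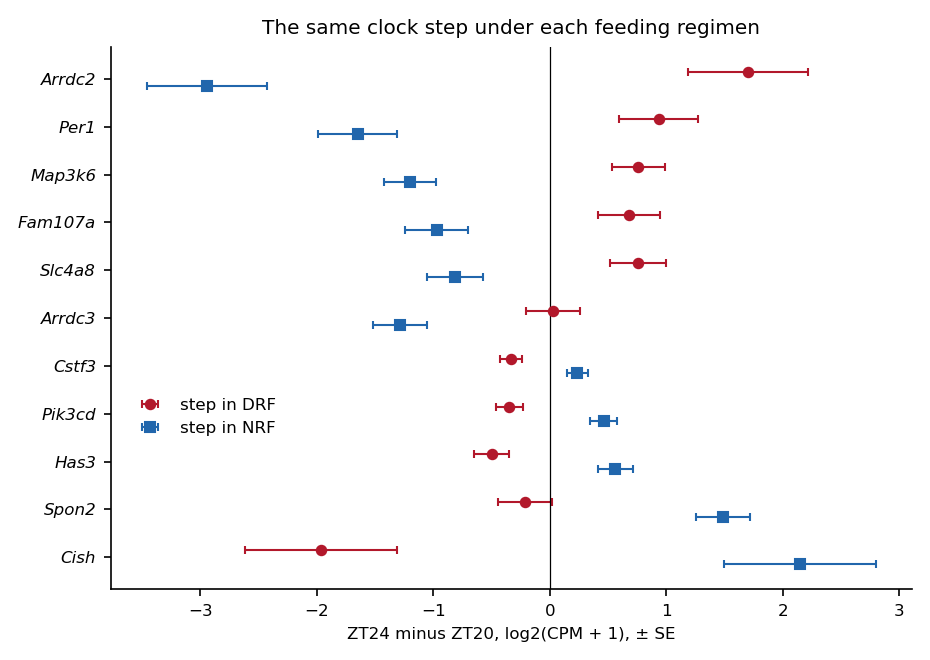
ZT24 minus ZT20, in log2(CPM + 1) with its standard error, in DRF (circles) and in NRF (squares). Genes shown had whole reads and a group mean of at least 5 CPM, without predicted models. Among such genes they are the 6 largest called differences above 0, of 53 called over all genes, and the 5 below 0, of 9 called. For Arrdc2 the step was 1.70 in DRF and -2.94 in NRF, and for Cish -1.96 in DRF and 2.15 in NRF.

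Over the whole day, the DRF values at ZT24 stood beside those at ZT0, taken at the same clock time. Slc25a22 averaged 42.9 ± 13.7, 16.1 ± 2.81, 11.0 ± 1.41, 8.33 ± 0.15, 11.4 ± 1.81, 14.9 ± 4.32 and 44.1 ± 14.1 CPM from ZT0 to ZT24 in DRF (SD, n = 4 each). It was high at lights on and lowest at the start of the dark phase. Pank1 had 53.0 ± 16.4 CPM at ZT0, 9.62 ± 1.05 CPM at ZT12 and 55.3 ± 23.2 CPM at ZT24. Ehhadh had 16.4 ± 4.80 CPM at ZT0, 7.49 ± 1.04 CPM at ZT16 and 26.2 ± 9.68 CPM at ZT24. Myod1 had 2 maxima in DRF, 42.8 ± 3.85 CPM at ZT4 and 56.1 ± 12.1 CPM at ZT16, and its ZT24 mean of 20.8 ± 3.64 CPM lay near the 18.7 ± 2.35 CPM of ZT8. Ulk1 averaged 140 ± 21.8 CPM at ZT0 and 176 ± 39.5 CPM at ZT24, and Nr4a1 253 ± 57.0 and 119 ± 66.8 CPM. Between the 2 collections at lights on, the means of Nr4a1, Ehhadh and Ulk1 thus lay apart, and those of Slc25a22 and Pank1 lay close. Differences between these 2 collections were not tested here.

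**Figure D5:**
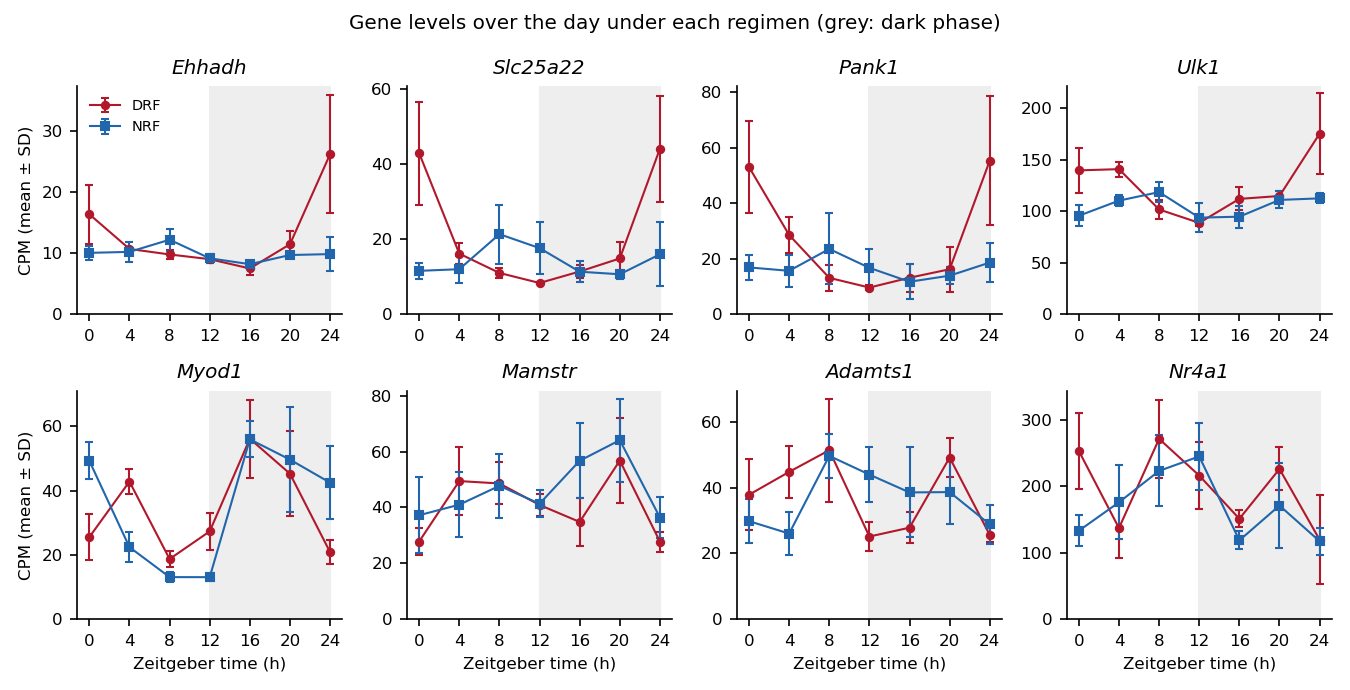
Mean CPM ± SD (n = 4) of 8 called genes at 7 zeitgeber times in DRF (circles) and NRF (squares), with the dark phase shaded. Ehhadh, Slc25a22, Pank1 and Ulk1 reach their highest DRF mean at ZT24, at 26.2, 44.1, 55.3 and 176 CPM.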

How the data were processed

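Polyadenylated RNA of 56 muscle libraries was read as paired ends on a BGISEQ-500, per the labels' protocols, with no step named that marks the strand. HISAT2, Bowtie2 and RSEM, with mm10 and GRCm38.p6, are named in the submitters' processing notes, without versions or roles. The deposited values, headed TPM for 19072 genes, are a score: K × log2(1 + CPM) / length, with K setting each column's sum. The formula was inverted gene by gene to CPM, on the authors' library sizes, and to read counts, for 17443 genes, after checks on simulated data. Genes without whole reads (1790 of 12025 tested) share reads with other genes and are uncertain. The planned design had allowed for another unit; the test followed the unit found. limma 3.58.1 (R 4.3.3) was fitted with a trend to log2(CPM + 1) of 56 libraries in 14 groups, for genes with a mean of at least 1 CPM, with Benjamini-Hochberg adjustment over all of them. Fold changes on this scale understate those of low genes.

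Named genes are the 12 largest rises and falls among called genes without overlap, whole reads and at least 5 CPM, the 5 largest gains and losses in CPM, clock genes, called list members, and the largest differences of the step between DRF and NRF. The last were also limited to whole reads and at least 5 CPM, and predicted models were left out of them and of the rises and falls. Some genes that this rule names are not reported here. Members and lists were chosen with earlier results of these data known. Symbols, coordinates and promoters are from RefSeq (GRCm38.p6), and 18955 identifiers matched. Alternatives covered scaling, filters, pseudocount, covariates, and each library left out.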

Additional observations from a re-analysis of the deposited data

Results flagged for a closer look

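In 12 of 138 groups looked at (69 genes at 2 times), 1 library stood apart from the other 3, with a gap to the nearest library, as a share of the group's range on the log2 scale, above Dixon's 95% critical value. Chance gives about 1 such group in 20. At ZT24 the low library had a share of 0.877 for Depp1, 0.885 for Pdk4 and 0.892 for Pdp2, which was replicate 2 for each of them, and 0.896 for Cry1, again replicate 2. Mamstr had a high library at ZT24 with 0.902, also replicate 2. At ZT20 the low library had 0.850 for Clpx, 0.891 for Clock, 0.927 for Rora and 0.924 for Has3, and the high library had 0.846 for Clec3b, 0.864 for Tef and 0.892 for Ccdc134. For Clpx, Clock and Rora the low library was replicate 1, which also lay farthest from its group over all genes.

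The ZT20 to ZT24 step differed between DRF and NRF, by a test of the difference itself, for 16 named genes. The DRF step minus the NRF step, in log2(CPM + 1), was 4.64 for Arrdc2, 2.58 for Per1, 1.96 for Map3k6, 1.65 for Fam107a, 1.57 for Slc4a8, 1.31 for Arrdc3, 1.07 for Ehhadh, 0.74 for Cmtm4, 0.66 for Txnrd1 and 0.37 for Pik3c3. It was -4.11 for Cish, -1.72 for Nr1d1, -1.70 for Spon2, -1.06 for Has3, -0.81 for Pik3cd and -0.57 for Cstf3. Map3k6, Arrdc2, Per1, Spon2 and Has3 kept the call in each of 16 fits that left out 1 library.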

How the results depend on the processing

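The 114 calls of the DRF step became 0 with the 8 libraries alone, 193 with the total recovered count as library size, 56 on log2 of the deposited value plus 1, 1213 with library weights, 300 with adipocyte and red blood cell scores, 39 with the slow fibre score, 30 with the slow fibre and Schwann cell scores, and 4 without both end libraries of the slow fibre score. Leaving out 1 library gave 3 to 367. For the difference of the steps, 62 calls became 0 with the 16 libraries alone, 7, 100, 283 and 148 under the same first settings in that order, 98 and 184 with the slow fibre scores, and 11 to 191 with 1 library left out. For the NRF step, 405 calls became 142 with the total count, 241 with quantile normalization, 667 on the deposited values and 685 with library weights, and 75 to 413 with 1 library left out. The causes were not tested. The remaining scalings, filters, pseudocounts, the limma voom fit and the gene-length trend kept each count within 1.5 times. The slow fibre alternatives were chosen after seeing the data. No named gene that was called turned its direction under any of these settings.

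The main fit did not pair samples by replicate number, and whether the numbers pair them was not tested. The deviations of same-numbered DRF ZT24 and ZT20 libraries correlated at 0.045, 0.335, 0.152 and -0.397 for numbers 1 to 4. With the replicate number as a block the counts were 107 (75 higher, 32 lower) for the DRF step, 62 for the difference and 378 for the NRF step. Depth, at least 29522846 reads in these 8 libraries, limits precision mainly for genes near 1 CPM.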
